A study of Mus musculus with 10 samples.

Results

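SW1 melanomas of mice that drank control water were compared between day 21 and day 7, gene by gene, in 3 kinds of droplet barcodes. SW1 cells come from a melanoma of C3H mice and were grown here in C3H/HeJ hosts, which have an intact adaptive immune system and a defective Tlr4 gene, the receptor for bacterial lipopolysaccharide. Female mice aged 4 to 6 weeks received SW1 cells under the skin of the flank and were given control or L-fucose water from 10 days later by the labels, although the sources differ and a longer wait is stated elsewhere. The day counts from the start of treatment. Each time is 1 pooled library of tumors sorted for CD45, the protein of the Ptprc gene, so there is no replicate and no test, and a difference between the times cannot be told apart from a difference between the 2 libraries. The protocols give 6 mice per arm in one place and 5 in another, and the mice in each pool are not named. A barcode was kept with at least 500 detected genes and at most 10% of its unique molecular identifiers (UMIs, 1 per captured RNA molecule) from mitochondrial mt- genes. Macrophages were kept barcodes with at least 10 UMIs of C1qa, C1qb and C1qc together, other Ptprc-positive barcodes had at least 1 Ptprc UMI without reaching that C1q level, and tumor barcodes had at least 1 Sox10 UMI and no Ptprc UMI. The 3 classes held 15784 barcodes of the control pair, of 31156 kept and 41936 deposited barcodes in the 5 RNA libraries of the series, which also include a pretreatment pool at day 0 and L-fucose pools at days 7 and 21.

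C1q subunits are made in tumors mainly by macrophages, which clear debris, present peptides on MHC class II and release cytokines and chemokines. As monocytes enter a tumor and turn into macrophages they lose genes of blood monocytes and take on genes of tissue macrophages. Sox10 is a transcription factor of the neural crest lineage, from which melanocytes, Schwann cells and melanomas derive. T cells that meet antigen for a long time in a tumor keep inhibitory receptors such as PD-1 (Pdcd1), LAG-3 and TIM-3 (Havcr2) on their surface.

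The day 7 library held 20741 barcodes and 119047810 UMIs, of which 17897 barcodes (86.3%) were kept. The day 21 library was far smaller, with 2754 barcodes and 21727157 UMIs, and 1573 (57.1%) were kept. Macrophages were 9.90% of the kept barcodes at day 7 (1772 barcodes, exact binomial 95% interval 9.47 to 10.3%) and 50.1% at day 21 (788 barcodes, 47.6 to 52.6%). Other Ptprc-positive barcodes made up 20.8% (3725 barcodes, 20.2 to 21.4%) and 13% (204 barcodes, 11.3 to 14.7%). Tumor barcodes made up 50.3% (8996 barcodes, 49.5 to 51.0%) and 30.7% (483 barcodes, 28.4 to 33.1%), although the labels describe the cells as CD45-sorted. Intervals cover counting error only, and a sort sets such shares. Tumor barcodes were deeper at day 21, with a median of 22158 UMIs against 7412 at day 7, while macrophages were close, with 5737 against 6285, and other Ptprc-positive barcodes had 2824 against 3246.

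**Figure D1:**
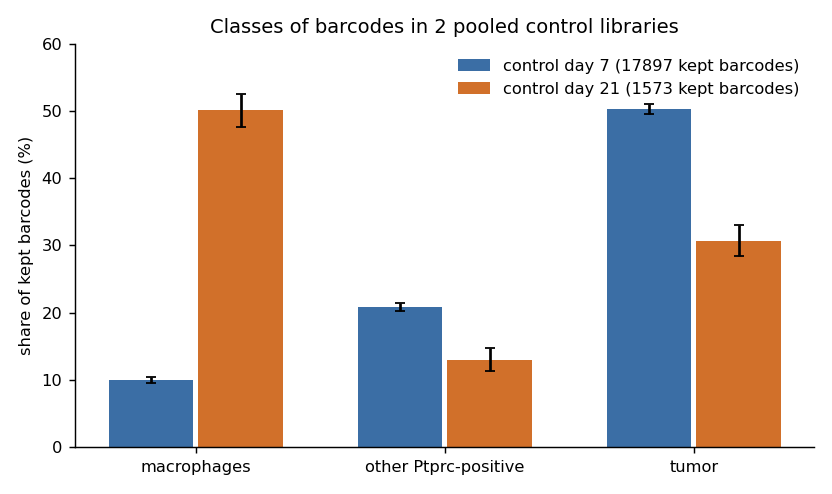
Share of kept barcodes (%) in each class for control day 7 (blue) and control day 21 (orange), 1 pooled library each, with exact binomial 95% intervals for counting error. Macrophages made up 9.90% at day 7 and 50.1% at day 21, and tumor barcodes 50.3% and 30.7%.

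Markers of other cells moved with the time in every class. In macrophages, tumor markers summed to 265 counts per 1000000 UMIs of the class (CPM) at day 7 and 66.5 at day 21, T cell markers to 363 and 75.7, natural killer (NK) cell markers to 134 and 21.2, and fibroblast markers to 145 and 22.3. A Sox10 UMI was present in 31.1% of macrophages at day 7 (29.0 to 33.3%) and in 3.05% at day 21 (1.96 to 4.50%). In tumor barcodes, red cell markers summed to 640 and 5.68, T cell markers to 34.9 and 2.14, and macrophage markers, all 11 detected at both times, to 804 and 419. The 6 NK cell markers were all at 0 in tumor barcodes at day 21. Fibroblast markers were higher in tumor barcodes at day 21, with sums of 432 and 550, although the member Col1a1 was lower (log2 ratio -4.15). Mature dendritic cell markers summed to 207 and 377 there, although Ccl22 had no UMI at day 21. A UMI of the fibroblast list was in 78.3 and 91.7% of tumor barcodes, and of the mature dendritic cell list in 67.4 and 90.1%. Whether these 2 lists mark other cells in tumor barcodes was not tested. B cell markers were higher in macrophages at day 21, with sums of 20.6 and 50.9. So were the sums for markers of type 1 (40.1 and 82.3) and type 2 (14.6 and 31.3) conventional dendritic cells and of endothelial cells (40.5 and 74.9). Members did not all go the same way. Of 4 type 1 markers compared 3 were at least 2-fold higher and 1 lower, and of 4 endothelial markers 2 were higher and 1 lower. In other Ptprc-positive barcodes, tumor markers summed to 612 and 161 and red cell markers to 1230 and 14.0. The part of these markers in the results was not tested. Values under strict gates are therefore given too. These drop macrophages and other Ptprc-positive barcodes with a Sox10 UMI and tumor barcodes with 10 or more C1q UMIs. Strict gates do not remove RNA of other cells. In macrophages tumor markers then summed to 85.9 and 37.8 and T cell markers to 428 and 76.3. Schwann and neural crest genes then had a median log2 ratio of -3.18 in macrophages and -4.63 in other Ptprc-positive barcodes.

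The labels of the classes were checked against markers that the gates did not use. In macrophages Csf1r, the receptor for the growth factor CSF1, stood at 180.0 at day 7 and 315 at day 21 (CPM here and for all gene levels below). Tumor barcodes carried Erbb3 (143 at day 7 and 130.10 at day 21), a receptor gene of the Schwann and neural crest lineage. Pigment genes were nearly absent there, with Tyr, which encodes tyrosinase, at 0 and Mlana at 5 UMIs at day 7 and 0 at day 21, so the name tumor rests on Sox10 and Erbb3 and on no pigment gene. The other Ptprc-positive class is a mixture of T cells, NK cells, dendritic cells, monocytes, neutrophils and others. At 1000 UMIs per barcode, neutrophil markers were found in 2.53% of its barcodes at day 7 (2.04 to 3.09%) and 12.4% at day 21 (8.05 to 18.1%), T cell markers in 30.9% (29.4 to 32.4%) and 36.2% (29.3 to 43.6%), and NK cell markers in 17.9% (16.6 to 19.2%) and 9.19% (5.44 to 14.3%). Without thinning these shares were 4.97% and 14.2% for neutrophil, 47.7% and 41.2% for T cell and 32.1% and 13.2% for NK cell markers. Thinning left out 82 and 19 barcodes. In bulk sums of such a mixture, fewer cells of a type and less RNA per cell cannot be told apart.

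Macrophages at day 21 had higher levels of some early response and resident-type genes than at day 7, and lower levels of some monocyte and early macrophage genes. Of 12161 genes compared, which had a mean level equal to at least 10 UMIs in the smaller sum, 508 (4.18%) were at least 2-fold higher and 2001 (16.5%) at least 2-fold lower, with a median log2 ratio of -0.21. Ratios carry 1 UMI of the smaller sum as a pseudocount. Scaling by the median of ratios in place of the total brings that median to about 0 and gives 785 higher and 1646 lower genes. Under strict gates 360 of 11738 genes were higher and 1393 lower.

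MHC class II molecules show peptides to CD4 T cells, and Cd74 is the invariant chain that guides their loading. The 14 genes of the class II list had a median log2 ratio of 0.72 (0.48 under strict gates), and their summed level was 26929 CPM at day 7 and 44137 at day 21. The list also holds the antigen processing genes Ctss, Ifi30 and Lgmn. The 1 gene of 14 past 2-fold, a share near that of all genes, was H2-DMb2, a chain of a peptide-exchange factor, at 114 at day 7 and 351 at day 21, 3.09-fold higher (exact 95% counting interval 2.91 to 3.29). Cd74 stood at 12944 at day 7 and 21029.9 at day 21, and H2-Aa, a classical chain, at 3641 at day 7 and 6046 at day 21. Per C1q UMI, the sum of the classical chains and Cd74 was 2.18 at day 7 and 1.98 at day 21. The gate gene C1qa stood at 3931 at day 7 and 7327 at day 21, which is a description since the gate used it.

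Resident-type macrophage genes had a median log2 ratio of 0.77 over 18 genes (0.49 under strict gates), and 5 of them passed 2-fold, all upward. Cbr2, a carbonyl reductase of resident macrophages, stood at 6.26 at day 7 and 32.2 at day 21 (5.14-fold, 4.01 to 6.65). Folr2, a folate receptor, stood at 11.4 at day 7 and 30 at day 21, and F13a1, a coagulation factor subunit, at 13.2 at day 7 and 37.8 at day 21. These 3 were each found in 22 to 30 of the 788 barcodes at day 21, with 25.8 to 33.8% of their UMIs in 1 barcode, so few cells carry the difference. Folr2 fell below 2-fold without its richest barcode in each library (log2 ratio 0.94). Lyve1, a hyaluronan receptor, had no UMI at day 7 and 25 UMIs in 6 barcodes at day 21, at least 14.9-fold higher against a floor of 3 UMIs at day 7. Cd163, a scavenger receptor, had 9 and 17 UMIs. Widely expressed members differed less, and Selenop, a selenium carrier, stood at 221 at day 7 and 419 at day 21.

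Genes of monocytes and early macrophages went the other way. Of 14 compared, 7 were at least 2-fold lower and none higher, with a median log2 ratio of -1.22 and -1.25 under strict gates. The monocyte markers differed less. Of 3 compared only Plac8 was at least 2-fold lower, and the highest log2 ratio was 0.11. Their median was -0.60 and -0.85 under strict gates. Fn1, which encodes fibronectin, stood at 113 at day 7 and 12.9 at day 21, 8.79-fold lower (7.17 to 10.9). S100a6 stood at 522 at day 7 and 80.9 at day 21 and S100a4 at 95.6 at day 7 and 27.8 at day 21, and both encode calcium-binding proteins of motile cells. Fn1 and S100a6 are also expressed by tumor cells, with 331 at day 7 and 322 at day 21 for Fn1 in tumor barcodes, and the tumor marker sum of macrophages was lower at day 21 too. Under strict gates their log2 ratios were -3.12 and -2.19. Schwann and neural crest genes, which tumor cells express, were also lower in macrophages under these gates, with a median of -3.18. The part of tumor RNA in Fn1 and S100a6 was not tested.

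Early response genes were led by regulators that limit inflammatory signals. Of 22 genes in this list, 7 were at least 2-fold higher and none lower, with a median log2 ratio of 0.77 (0.63 under strict gates). Klf2, a transcription factor that restrains macrophage activation, stood at 259 at day 7 and 1090.0 at day 21, 4.21-fold higher (4.04 to 4.38). Zfp36, which encodes the mRNA-destabilizing protein tristetraprolin, stood at 789.5 at day 7 and 2553 at day 21. Dusp1, a phosphatase that turns off MAP kinases, stood at 367 at day 7 and 1125 at day 21. Fos (977 at day 7 and 2060.5 at day 21), Junb (1085 at day 7 and 2453 at day 21) and Atf3 (646 at day 7 and 1384 at day 21) also passed 2-fold, with log2 ratios of 1.04, 0.97 and 0.86 under strict gates. This list holds genes that growth factors, stress and the handling of tissue all induce, and 10 of 22 were higher in other Ptprc-positive barcodes and 12 of 22 in tumor barcodes. Socs3, which blocks cytokine receptor signalling, stood at 249 at day 7 and 876 at day 21.

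Cytokine and chemokine genes were partly higher. Of 21 inflammatory genes 4 were higher and 1 lower, with a median log2 ratio of 0.48. Under strict gates 2 were higher and the median was 0.15. Il1b, which encodes the cytokine IL-1β, stood at 969 at day 7 and 2135 at day 21, with a log2 ratio of 1.14 that was 0.77 under strict gates and so below 2-fold. Ccrl2, an atypical chemokine receptor, stood at 538 at day 7 and 1377 at day 21. Il12b, a subunit of IL-12, stood at 12.4 at day 7 and 35.2 at day 21 and was found in 32 barcodes at day 21, and its log2 ratio of 1.49 was 0.32 after thinning to 1000 UMIs. Tnf, with 378 at day 7 and 664 at day 21, did not reach 2-fold. Among 11 CC chemokines 3 were higher and 1 lower. Ccl3 stood at 428 at day 7 and 979.7 at day 21 and Ccl4 at 2157 at day 7 and 4441 at day 21, both of which draw T cells and monocytes. Ccl6, a monocyte attractant, stood at 56.3 at day 7 and 116 at day 21. Under strict gates none of the chemokines passed 2-fold upward. Ccl5, which T and NK cells also make, was lower, at 756 at day 7 and 245 at day 21.

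**Figure D2:**
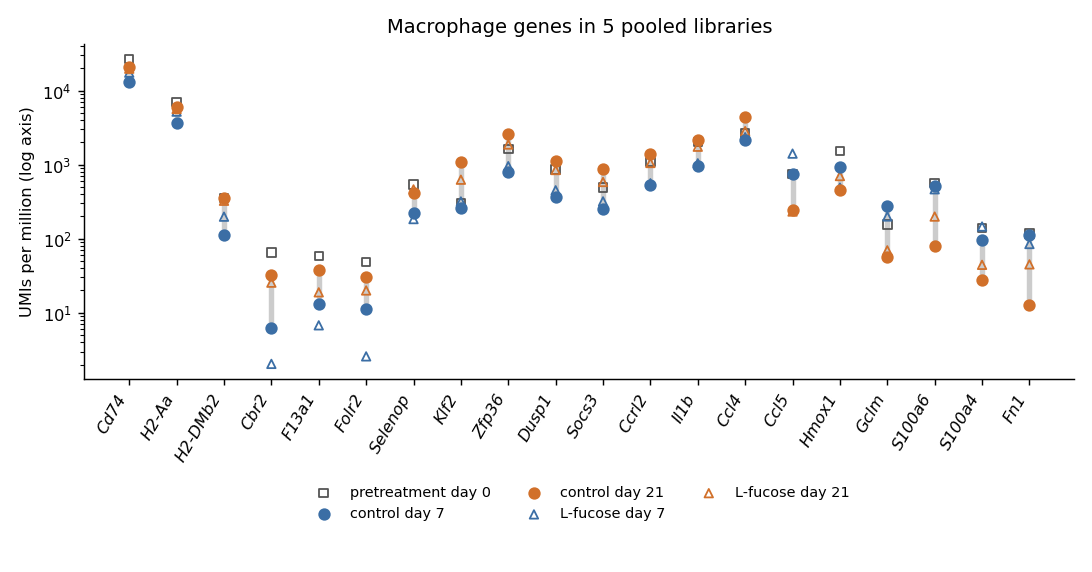
Summed CPM (log axis) of macrophage genes in the 5 pooled RNA libraries, with control day 7 in filled blue and control day 21 in filled orange joined by a grey bar, L-fucose pools as open triangles and pretreatment as open squares. Klf2 stood at 259 and 1090.0 in the control pair, and Fn1 at 113 and 12.9.

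Genes of heme and oxidative stress handling were mostly alike, with a median log2 ratio of -0.30 over 15 genes against -0.21 for all genes. Of these 3 were at least 2-fold lower, a share near the 16.5% of all genes. Gclm, a subunit of the enzyme that starts glutathione synthesis, stood at 278 at day 7 and 57.1 at day 21, 4.86-fold lower (4.41 to 5.38). Hmox1, which encodes heme oxygenase 1, stood at 941 at day 7 and 452 at day 21. Among alternative activation genes Arg1, which encodes arginase 1, was lower, at 284 at day 7 and 140.2 at day 21. Retnla, a marker of alternatively activated macrophages, stood at 10.7 at day 7 and 158 at day 21, but 80.9% of its day 21 UMIs lay in 1 barcode and its log2 ratio dropped from 3.87 to 2.23 without the richest barcode of each library. The lipid-associated list, with Trem2 (374 at day 7 and 457 at day 21) and Apoe (6073 at day 7 and 7375 at day 21), had a median log2 ratio of 0.02. Interferon-stimulated genes had a median of 0.16, with 3 of 30 higher and 1 lower. Oas1a, which senses viral RNA, led them at 15.1 at day 7 and 53.4 at day 21, and Isg15 stood at 379 at day 7 and 525 at day 21. Car3, a carbonic anhydrase of muscle and fat, had 5 UMIs at day 7 and 386 in 25 barcodes at day 21.

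Among the most abundant macrophage genes, Rgs1, a regulator of chemokine receptor signalling, stood at 1182 at day 7 and 3289 at day 21, Cd72, an inhibitory surface receptor, at 453 at day 7 and 1225 at day 21, and Cd83, a marker of activated antigen-presenting cells, at 376 at day 7 and 952 at day 21. Each was at least 2-fold higher at day 21 under strict gates as well. On the lower side were Tmsb10, an actin-binding thymosin (3695 at day 7 and 1342 at day 21), Dbi, an acyl-CoA-binding protein (907 at day 7 and 338 at day 21), and Lgals1, which encodes galectin 1 (1381 at day 7 and 665 at day 21). Under strict gates their log2 ratios were -1.32, -1.06 and -0.86, so Lgals1 was then below 2-fold. Gm42418, a locus that overlaps ribosomal RNA and whose counts are uncertain, stood at 54352 at day 7 and 19075 at day 21.

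The lists with the most negative medians in macrophages were those of other cells. All 15 compared Schwann and neural crest genes, 25 of 30 matrix genes, 11 of 15 T and NK effector genes and all 9 regulatory T cell genes were at least 2-fold lower. These moved with the tumor, fibroblast and T cell marker sums above. Receptor contigs of T cells were found in 13.3% of macrophage barcodes at day 7 (11.7 to 14.9%) and in 1.40% at day 21 (0.699 to 2.48%).

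The other Ptprc-positive barcodes, the smallest class at day 21, had the largest share of genes past 2-fold. Of 9811 genes 1133 (11.5%) were at least 2-fold higher and 1332 (13.6%) at least 2-fold lower, with a median log2 ratio of -0.18. The median of ratios gave 1385 higher and 1010 lower, and strict gates left 644 higher and 1175 lower of 9015. Antibody genes dominated the highest ratios. Variable genes of immunoglobulins summed to 1292 CPM at day 7 and 129957 at day 21, and in 52 of the 55 compared a single barcode held over 50% of the UMIs at day 21 or day 7. Jchain, which joins secreted antibodies, stood at 67.3 at day 7 and 6499.6 at day 21, and Igha, the IgA heavy chain, at 33.0 at day 7 and 2155 at day 21. Barcodes with at least 10% immunoglobulin UMIs were 5 of 3725 at day 7 and 11 of 204 at day 21 (5.39%, 2.72 to 9.44%), and these 11 held 29.2% of the UMIs of their class. Without them 1416 genes were higher and 767 lower, so the count of lower genes depends on them. Values without these barcodes are given below where they change a count by over 1.5 times.

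T cell markers and genes of the inhibitory receptor and effector lists were mostly higher in this class. Naive and memory T cell genes had a median log2 ratio of 0.53, which was -0.45 under strict gates. The 9 T cell markers summed to 500.4 and 1614, and 6 were at least 2-fold higher with a median log2 ratio of 1.33, but under strict gates 2 were, with a median of 0.41. The inhibitory receptor list does not hold receptors only, since the transcription factor gene Nr4a2 is a member. Of its 11 genes compared 10 were at least 2-fold higher and none lower, with a median of 2.42. Under strict gates 10 of 12 were higher and 1 lower, with a median of 1.51. Pdcd1, which encodes PD-1, stood at 26.8 at day 7 and 201 at day 21 and Ctla4, which competes with CD28 for its ligands, at 27.8 at day 7 and 217 at day 21. Tigit stood at 25.3 at day 7 and 174 at day 21 and Havcr2 at 17.9 at day 7 and 117 at day 21. Lag3, which binds class II, stood at 16.2 at day 7 and 209.7 at day 21. It had 33.8% of its day 21 UMIs in 1 barcode and a log2 ratio of 3.07 without the richest barcode of each library, against 3.63 with it. Of 16 T and NK effector genes 12 were higher and none lower, with a median of 1.75. Under strict gates 7 were higher and 1 lower, with a median of 0.82. Ifng, which encodes interferon γ, stood at 31.8 at day 7 and 246 at day 21, and Prf1, the pore-forming perforin, at 38.7 at day 7 and 159.8 at day 21, with a log2 ratio of 2.02 that was 0.85 after thinning. Gzma, a granzyme abundant in NK cells, stood at 224 at day 7 and 209.7 at day 21, and Cd8a at 39.9 at day 7 and 77.2 at day 21. Under strict gates the log2 ratios of Gzma and Cd8a were -0.82 and -0.03. Gzmd had 3 and 72 UMIs, and 90.3% of the latter lay in 1 barcode.

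The T cell receptor libraries give a readout that the gates did not use. Receptor contigs were found for 949 barcodes at day 7 and 56 at day 21. Among the other Ptprc-positive barcodes they were present in 14.6% (13.5 to 15.8%) and 21.6% (16.1 to 27.9%). The largest clonotype held 60 receptor-bearing barcodes at day 7 (6.32%, 4.86 to 8.06%) and 7 at day 21 (12.5%, 5.18 to 24.1%). The 5 largest together held 16.9% (14.5 to 19.4%) and 35.7% (23.4 to 49.6%), and clonotypes seen once held 51.9% (48.7 to 55.2%) and 50% (36.3 to 63.7%). These shares depend on the number of barcodes, 949 against 56, so they are not compared further. None of the 487 receptor β chain (TRB) CDR3 sequences of day 7 was among the 35 of day 21. CDR3 is the loop that contacts the peptide, and the nucleotide sequences of the leading clonotypes are shown because they identify the expanded clones of each pool. They are written 5′ to 3′, in lower case throughout.
Day 7, largest clonotype, TRBV10 with TRBJ2-4: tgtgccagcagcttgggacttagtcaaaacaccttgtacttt
Day 7, next clonotype, TRBV13-1 with TRBJ2-7: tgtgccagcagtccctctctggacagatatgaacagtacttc
Day 21, largest clonotype, TRBV30 with TRBJ2-4: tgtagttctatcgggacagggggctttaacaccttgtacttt
Day 21, next clonotype, TRBV5 with TRBJ2-5: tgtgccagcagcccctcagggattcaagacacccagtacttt
The third clonotype of day 7, with 25 barcodes, carried the same TRBV10 sequence as the largest and 1 of its α chains, and the files count them as separate clonotypes. In the largest clonotype of day 7, 34 of 60 barcodes had a Cd8a UMI and 2 a Cd4 UMI. The largest of day 21 had a Cd8a UMI in 6 of 7 barcodes and a Cd4 UMI in none, while the next had a Cd4 UMI in 4 of 4 and a Cd8a UMI in none.

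The 544 and 44 other Ptprc-positive barcodes that carry a receptor contig let T cell genes be compared among barcodes that hold a T cell receptor. Their median depth was 3597 UMIs at day 7 and 4787 at day 21, and 150 and 0 of them had a Sox10 UMI. Of 3724 genes compared, 519 were at least 2-fold higher and 334 lower, with a median log2 ratio of 0.12. T cell markers were higher in 8 of 9 with a median of 1.51, among them Cd3e, a subunit of the receptor complex, at 532 at day 7 and 2284 at day 21. Genes of the inhibitory receptor list were higher in 10 of 11, with a median of 2.48, which is the value of its member Nr4a2. Lag3 stood at 59.5 at day 7 and 1087 at day 21, 18.3-fold higher (15 to 22.3), and was found in 32 of the 44 barcodes. Pdcd1 stood at 111 at day 7 and 968 at day 21 and was found in 35, and Ctla4 stood at 101 at day 7 and 891 at day 21 and was found in 32. Havcr2 stood at 43.7 at day 7 and 437 at day 21. T and NK effector genes were higher in 12 of 15 and lower in 2, with a median of 1.53 that is close to that of the T cell markers. Ifng stood at 149 at day 7 and 1261 at day 21 and Prf1 at 72.9 at day 7 and 688 at day 21. At day 21 Ifng was found in 24 barcodes, with 22.2% of its UMIs in 1 barcode. Prf1 was found in only 12, with 36.4% in 1 barcode. Cd4 stood at 69.4 at day 7 and 921 at day 21, a 13.3-fold difference, against 2.11-fold for Cd8a. Naive and memory T cell genes were higher in 1 of 7 and lower in 1, with a median of 0.35.

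Only 2 of the 15 effector genes were lower in the receptor-bearing barcodes, Gzma and Xcl1, beside Klf2. Klf2, which keeps T cells recirculating, stood at 114 at day 7 and 21.2 at day 21, opposite to its direction in the whole class. Its day 21 value rests on 5 UMIs (5.36-fold lower, 2.27 to 16.6). Xcl1, a chemokine of CD8 T and NK cells, stood at 131 at day 7 and 12.7 at day 21, the latter on 3 UMIs in 2 barcodes (10.3-fold lower, 3.50 to 50.3). Gzma stood at 188 and had no UMI at day 21, at least 14.8-fold lower against a floor of 3 UMIs. Of 9 regulatory T cell genes 7 were higher, with a median of 1.47 that is also close to that of the T cell markers, led by Icos (74.3 at day 7 and 649 at day 21), an activation receptor, and Ccr8 (40.9 at day 7 and 306 at day 21), a chemokine receptor of tumor regulatory T cells. Foxp3, which defines that lineage, stood at 38.7 at day 7 and 63.7 at day 21, with a counting interval of 0.890 to 2.83 for its ratio that includes 1.

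**Figure D3:**
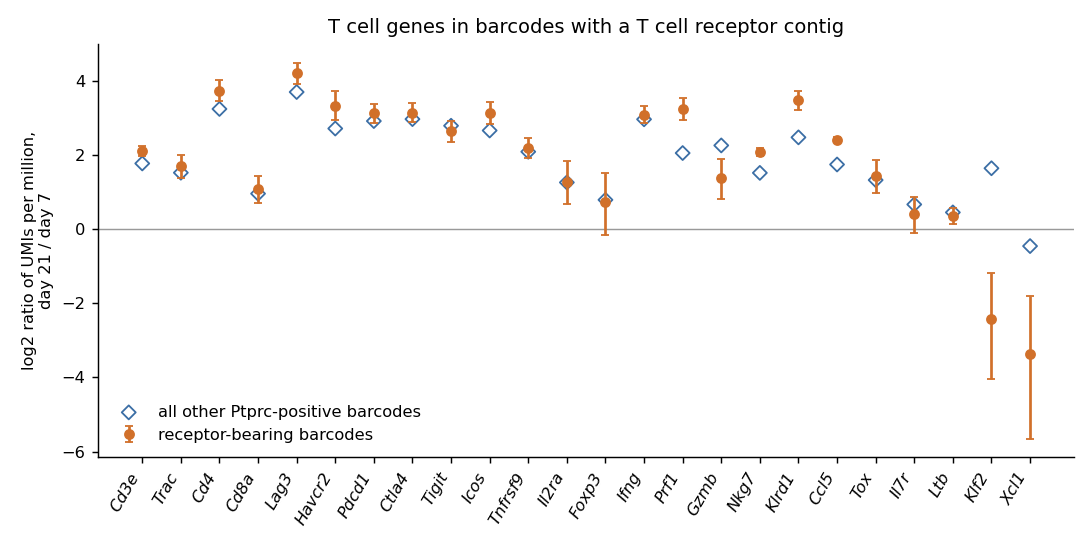
Log2 ratio of summed CPM, day 21 over day 7, of T cell genes in other Ptprc-positive barcodes with a T cell receptor contig (orange, 544 and 44 barcodes, 95% counting intervals) and in the whole class (blue diamonds, 3725 and 204 barcodes), without a pseudocount. Among the genes plotted Lag3 is highest in the receptor-bearing barcodes, and Klf2 lies above 0 in the whole class and below 0 among them.

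Inflammatory and myeloid genes of the class were also higher. Of 19 inflammatory genes 17 were at least 2-fold higher, with a median log2 ratio of 2.51 (1.72 under strict gates), against 11.5% of all genes. Cxcl2, a neutrophil chemokine, stood at 210.1 at day 7 and 2342 at day 21, and Il1b at 103 at day 7 and 999.3 at day 21. Both genes are made by activated myeloid cells. Ly6c2, which marks monocytes and is also made by plasma cells and some T cells, stood at 67.9 at day 7 and 1105 at day 21, but its log2 ratio of 4.01 was 0.83 without the immunoglobulin-rich barcodes and 1.41 after thinning. S100a9, an alarmin subunit of neutrophils and monocytes, stood at 111 at day 7 and 818 at day 21. Hdc, the histamine-forming enzyme of basophils and mast cells, stood at 4.02 at day 7 and 159 at day 21. All 5 neutrophil markers and all 5 mast cell and basophil markers compared were at least 2-fold higher, with summed levels of 224 and 1504, and 22.6 and 339. Of the 3 monocyte markers compared, all passed 2-fold, but under strict gates only Ly6c2 did, and it held most of their sum of 1412 at day 21. Plasmacytoid dendritic cell markers went down, from a sum of 88.4 to 31.2, and Cox6a2 had 698 UMIs at day 7 and none at day 21. Of 14 genes of the class II list 10 were higher and none lower, with a median of 1.29 that was 0.59 after thinning. Cd74 stood at 1972 at day 7 and 4875 at day 21, with a log2 ratio of 1.31 that was 0.62 after thinning. Markers of cells that carry class II were higher in the class as well, with B cell markers at sums of 13.6 and 355 and type 1 conventional dendritic cell markers at 18.3 and 146.

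Genes of low oxygen and glycolysis were lower in this class. Of 28 compared 13 were at least 2-fold lower and 2 higher, with a median log2 ratio of -0.98 and -0.96 under strict gates. Without the immunoglobulin-rich barcodes 4 were lower and 3 higher, with a median of -0.54. Car9, a carbonic anhydrase induced by low oxygen, stood at 76.7 at day 7 and 12.5 at day 21. Bnip3, a mitophagy receptor, stood at 239 at day 7 and 74.8 at day 21, and the glycolytic enzyme gene Pgk1 at 966 at day 7 and 382 at day 21. These genes are also expressed by tumor cells, and tumor markers summed to 612 and 161 in the class. Cell cycle genes were lower too, in 13 of 30 and with a median of -0.85, and Top2a stood at 206 at day 7 and 76.4 at day 21. Hemoglobin genes showed the same direction, with Hbb-bs at 866 at day 7 and 9.35 at day 21.

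Promoters of the lower members were searched for ACGTG, the core of the hypoxia response element, on both strands of the 300 bases from 250 before to 50 after the start in the RefSeq table on GRCm38.p6. It was found in 8 of the 10 matched lower members (80.0%), in 18 of 26 matched members of the whole list (69.2%), and in 21.8% of the 27025 promoters. The lower members are the 13 of the whole class, against 4 without the immunoglobulin-rich barcodes. Without those barcodes the log2 ratio of Pgk1 was -0.98, below 2-fold, and that of Car9 was -2.06. The windows below show the core upstream of lower genes, where the nearest match begins 18 bases before the start in Car9 and 131 in Pgk1, with the core or its reverse complement in capitals, 5′ to 3′ on the strand of the gene.
Car9, chr4:43506966-43507025, plus strand: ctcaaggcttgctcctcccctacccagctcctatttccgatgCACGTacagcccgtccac
Pgk1, chrX:106186942-106187001, plus strand: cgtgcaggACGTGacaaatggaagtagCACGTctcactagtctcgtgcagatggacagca
A match to these letters is a description and not a site of binding.

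Tumor barcodes at day 21 had higher levels of many early response genes and of some genes of both MHC classes than at day 7. Of 12210 genes 556 (4.55%) were at least 2-fold higher and 484 (3.96%) lower, with a median log2 ratio of 0.17. Under the median of ratios 396 were higher and 566 lower. Strict gates changed little here, with 555 higher and 437 lower of 12161.

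Early response genes were higher in 12 of 22 and lower in 2, with a median log2 ratio of 1.15 and 1.22 under strict gates. Zfp36 stood at 138 at day 7 and 896 at day 21, 6.50-fold higher (6.32 to 6.69). Egr1, a growth factor response gene, stood at 634 at day 7 and 2285 at day 21. The subunits of the AP-1 factor stood at 772 at day 7 and 3090.1 at day 21 for Fos, 307 at day 7 and 1112 at day 21 for Junb and 448 at day 7 and 1439 at day 21 for Jun. These were regulators of transcription and RNA decay. Atf3 (43.1 at day 7 and 16.9 at day 21) and Hspa1a (33.1 at day 7 and 13.5 at day 21), a heat shock gene, were the lower members, and Hspa1a lay slightly above 0 (log2 ratio 0.17) when each barcode had the same weight. Ccn1, a secreted matrix protein induced by growth factors and YAP, stood at 492 at day 7 and 2918 at day 21, and Nfkbia, the inhibitor that NF-κB induces, at 89.5 at day 7 and 332 at day 21. Cxcl1, a neutrophil chemokine, stood at 7.67 at day 7 and 122 at day 21, in 79 barcodes at day 21. In the list of early response genes no promoter of the 18 matched held TGANTCA, the AP-1 motif, on either strand of the same 300 bases, against 8.97% of all promoters.

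MHC class I genes were higher in 7 of 23 and lower in none, with a median log2 ratio of 0.57. H2-K1 stood at 311 at day 7 and 1166 at day 21, 3.74-fold higher (3.66 to 3.83), and H2-Q4 at 414 at day 7 and 996 at day 21. The peptide transporter gene Tap1 stood at 65.0 at day 7 and 132 at day 21, and Erap1, which trims peptides, at 30.4 at day 7 and 62.0 at day 21. Scaled by the median of ratios, the log2 ratios of Tap1, Erap1, H2-T22 and Tapbpl were 0.85, 0.86, 0.97 and 0.96, below 2-fold. Those of H2-K1, H2-M3 and H2-Q4 were 1.74, 1.66 and 1.10. H2-D1 stood at 333 at day 7 and 241 at day 21. The class I heavy chains are close paralogs, and C3H mice carry another MHC haplotype than the reference genome, so how reads divide among H2-K1, H2-D1 and H2-Q4 is uncertain.

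The class II list had a median of 0.86 over 12 genes, 3 higher and 1 lower. H2-DMb2 stood at 89.3 at day 7 and 394 at day 21, the atypical chain gene H2-Eb2 at 6.50 at day 7 and 46.1 at day 21 and the classical chain gene H2-Ab1 at 395 at day 7 and 803 at day 21. Scaled by the median of ratios, the log2 ratio of H2-Ab1 was 0.86, below 2-fold, and those of H2-DMb2 and H2-Eb2 were 1.97 and 2.64. H2-Aa (697 at day 7 and 1379.7 at day 21) and H2-Eb1 (553 at day 7 and 1093 at day 21) lay just under 2-fold. Ctss, a protease abundant in macrophages, was the lower member, at 90.9 at day 7 and 11.9 at day 21. Macrophage RNA went the other way in these barcodes, with C1qa at 107 at day 7 and 12.6 at day 21, and the classical chains and Cd74 summed to 12.5 per C1q UMI at day 7 and 180 at day 21, against 2.18 and 1.98 in macrophages. The log2 ratio of C1qa was -3.07 in these sums but -0.99 after thinning and -0.90 when each barcode had the same weight, and that of Ctss was -2.92, -0.64 and -0.73, so the sizes of these differences depend on how barcodes of unlike depth are weighted. Among the 1489 and 303 tumor barcodes without any UMI of C1q, Lyz2 or Ctss, Cd74 stood at 1676 and 3021 and had a UMI in 93.8% and 99% of the barcodes. In the same barcodes H2-Ab1 stood at 370.1 and 782, with a UMI in 64.1% and 92.7%. The median depth there was 6966 and 22269 UMIs, so having none of these UMIs is a weaker condition at day 7. The part of macrophage RNA in the class II levels of tumor barcodes was not tested. Ciita, the master regulator of class II genes, stood at 23.6 at day 7 and 30.3 at day 21 in all tumor barcodes.

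Class II promoters carry a CCAAT box. The letters CCAAT were found, on either strand, in 9 of 11 matched promoters of the class II list (81.8%) and in 41.1% of all promoters. Among the processing genes of that list, Lgmn had a match and Ctss and Ifi30 had none. The windows of H2-Aa and H2-Eb1 are shown with the box in capitals, since the levels of these chains are given above.
H2-Aa, chr17:34287839-34287898, minus strand: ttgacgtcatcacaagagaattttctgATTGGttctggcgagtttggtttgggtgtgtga
H2-Eb1, chr17:34305805-34305864, plus strand: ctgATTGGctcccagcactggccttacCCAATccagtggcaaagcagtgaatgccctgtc

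**Figure D4:**
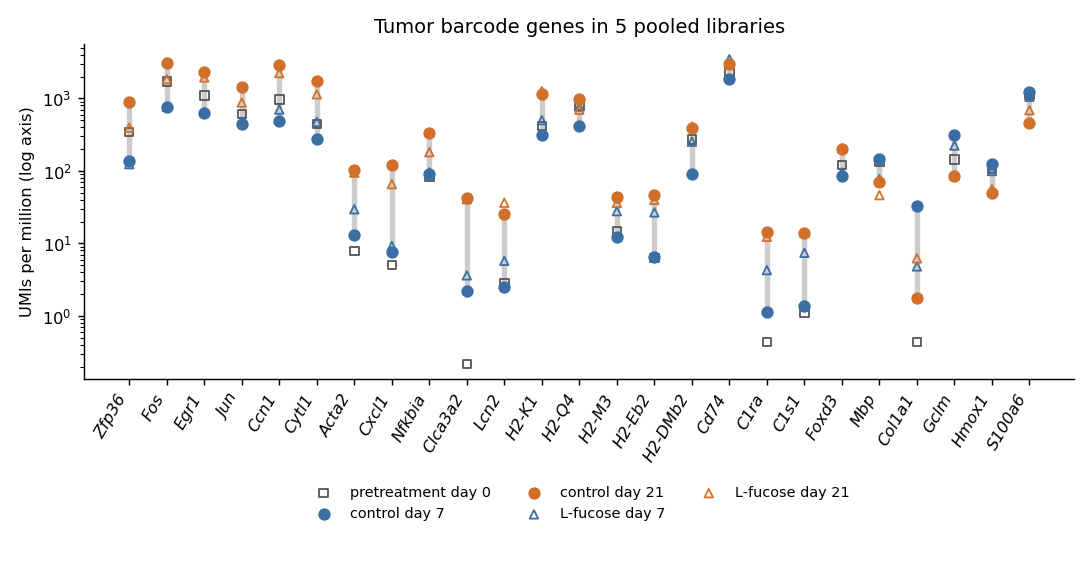
Summed CPM (log axis) of genes in tumor barcodes of the 5 pooled RNA libraries, with the same symbols as for macrophages. Zfp36 stood at 138 and 896 in the control pair and Col1a1 at 33.0 and 1.77.

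Most lineage genes of the tumor barcodes differed little. Schwann and neural crest genes had a median log2 ratio of 0.01 over 17 genes, with 2 higher and 2 lower, and no melanocyte gene of 8 passed 2-fold. Foxd3, a neural crest transcription factor, stood at 84.3 at day 7 and 200.2 at day 21, and Mbp, a myelin gene, at 148 at day 7 and 71.3 at day 21. The largest differences of the list rest on few molecules, with Ngfr, a neurotrophin receptor, at 302 UMIs at day 7 and 7 at day 21, and Mia, a secreted melanoma protein, at 6 and 20 UMIs, the latter in 3 barcodes. Complement genes C1ra (1.15 at day 7 and 14.4 at day 21) and C1s1 (1.38 at day 7 and 14.1 at day 21) were higher, and Cfb (4.77 at day 7 and 1.58 at day 21) and Cfp (2.90 at day 7 and 0.745 at day 21) lower, the last on 8 UMIs at day 21. Of 30 matrix genes 7 were lower and 1 higher. Col1a1, the chain of fibrillar collagen I, stood at 33.0 at day 7 and 1.77 at day 21 and Col1a2 at 18.4 at day 7 and 2.05 at day 21, while Bgn, which encodes biglycan and was the higher member, stood at 76.2 at day 7 and 164 at day 21. Cell cycle genes had a median of 0.58 over 31 genes, with 1 higher, and Mki67 stood at 139 at day 7 and 179.8 at day 21.

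Genes with the largest ratios included Clca3a2, a chloride channel regulator (2.24 at day 7 and 42.0 at day 21), Lcn2, an iron-binding lipocalin (2.54 at day 7 and 25.6 at day 21), Acta2, smooth muscle actin (13 at day 7 and 105 at day 21), and Cytl1, a secreted factor (277 at day 7 and 1744 at day 21). Cytl1 was found in 266 of 483 barcodes at day 21 and Clca3a2 in 68. Among abundant genes S100a6 (1221 at day 7 and 458 at day 21) and Apod, a lipid-carrying apolipoprotein (789 at day 7 and 346 at day 21), were lower. Among the lowest were genes of T and NK cells and red cells, with Gzma at 18.6 and 0, at least 66.7-fold lower, and Hbb-bs at 457 at day 7 and 4.00 at day 21, alongside the marker sums given above. Receptor contigs of T cells were found in 61 of 8996 tumor barcodes at day 7 (0.678%, 0.519 to 0.870%) and in 0 of 483 at day 21 (upper limit 0.761%).

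Inflammatory genes of tumor barcodes were higher in 3 of 17 and lower in 7, with a median log2 ratio of -0.79 that turned to 0.47 after thinning. Il1b stood at 27.5 at day 7 and 6.70 at day 21 and turned to a log2 ratio of 0.48 when each barcode had the same weight. All 8 CC chemokines compared were lower, with Ccl4 at 58.2 at day 7 and 8.28 at day 21. The log2 ratio of Ccl4 was -2.80 in these sums, -0.35 after thinning and -0.52 when each barcode had the same weight. The macrophage marker sum given above was lower too, and after thinning these markers were found in 44.1 and 25.2% of tumor barcodes. The part of macrophage RNA in the inflammatory and chemokine genes was not tested. Among interferon-stimulated genes 2 of 30 were higher and 1 lower, and Cxcl10, a chemokine that attracts T cells, stood at 429 at day 21, 3.30-fold higher (3.19 to 3.42).

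Nuclear genes of respiration differed little in every class. None of 28 nuclear genes of oxidative phosphorylation passed 2-fold in any class, with medians of -0.11 in macrophages, -0.36 in other Ptprc-positive barcodes and -0.17 in tumor barcodes. The 13 mt- genes had lower medians, of -0.59, -0.75 and -0.49 in the same order. Unfolded protein and amino acid stress genes had medians of -0.33, -0.16 and 0.43, with 3 of 16 lower in macrophages, 2 of 14 higher and 1 lower in other Ptprc-positive barcodes and 1 of 16 higher in tumor barcodes. Among all genes 16.5% were lower in macrophages, 11.5% higher and 13.6% lower in other Ptprc-positive barcodes and 4.55% higher in tumor barcodes. Xbp1, a transcription factor of secretory cells such as plasma cells, stood at 93.9 at day 7 and 699 at day 21 in other Ptprc-positive barcodes, and its log2 ratio of 2.89 was 0.17 without the immunoglobulin-rich barcodes.

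Some genes differed alike in the classes, which come from the same 2 libraries. Gclm was lower in macrophages (4.86-fold), other Ptprc-positive barcodes (5.65-fold) and tumor barcodes (3.64-fold). Zfp36 was higher by 3.23-fold, 7.08-fold and 6.50-fold, and H2-K1 by 2.06-fold, 4.27-fold and 3.74-fold. Gm42418 was lower by 2.85-fold, 3.76-fold and 4.04-fold. The mt- genes together stood at 25385 and 16943 CPM in macrophages, 27991 and 17176 in other Ptprc-positive barcodes and 29023 and 21983 in tumor barcodes.

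**Figure D5:**
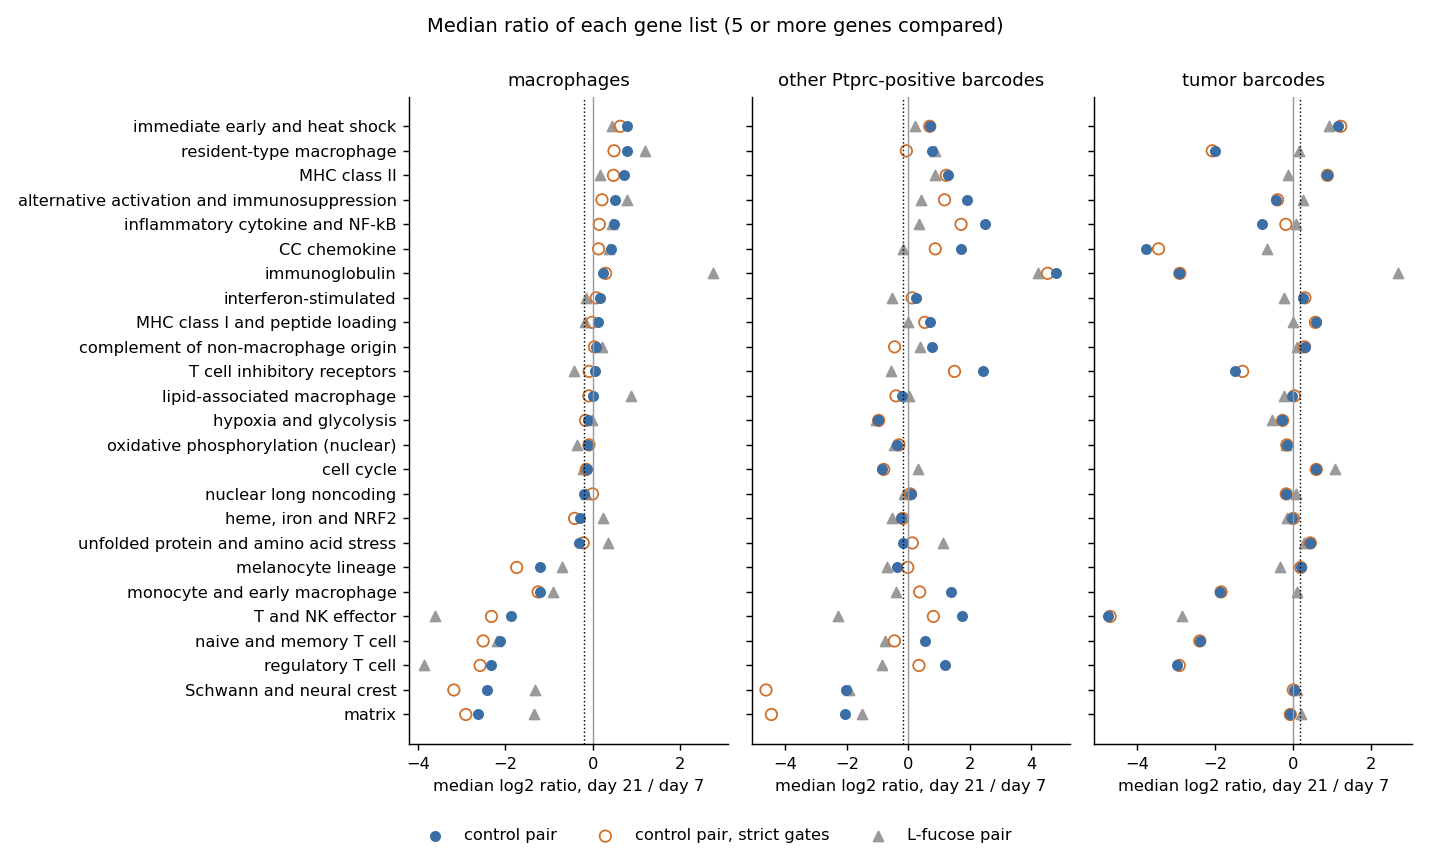
Median log2 ratio, day 21 over day 7, of each gene list with 5 or more genes compared, in the 3 classes. Blue points are the control pair, open orange circles the control pair under strict gates and grey triangles the L-fucose pair. The grey line marks 0 and the dotted line the median of all genes. The inhibitory receptor list in other Ptprc-positive barcodes lies at 2.42, 1.51 and -0.55.

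The L-fucose pools of the same days, which share no library with the control pair, show which differences between the days appeared there as well. In both pairs the day cannot be told apart from any batch of the day. The day 7 libraries held 20741 and 15288 barcodes (control and L-fucose) and the day 21 libraries 2754 and 1428. In L-fucose macrophages T cell markers summed to 639 and 54.2 and fibroblast markers to 158 and 24.7, while B cell markers were higher at day 21, at 29.6 and 159. Of 449 genes higher in control macrophages and compared in both pairs, 163 (36.3%) were at least 2-fold higher and 5 lower in the L-fucose pair, where 415 of all 11624 genes (3.57%) were higher. Of 1731 lower genes 796 (46.0%) were lower there, against 7.93% of all. In tumor barcodes 215 of 460 higher genes (46.7%) were higher and none lower there, against 4.74% of all. Of 294 lower genes in tumor barcodes 93 (31.6%) were lower and 18 (6.12%) higher there, against 1.26% and 4.74% of all. In other Ptprc-positive barcodes 277 of 1066 higher genes (26%) were higher and 99 (9.29%) lower, against 4.36% and 13% of all. Of 1248 lower genes in that class 647 (51.8%) were lower and 13 (1.04%) higher in the L-fucose pair. Among single genes the L-fucose log2 ratios in macrophages were 3.54 for Cbr2, 0.97 for Klf2, -1.22 for S100a6 and -1.51 for Gclm, with the sign seen in the control pair. For Hmox1 the ratio was 0.52 and for Arg1 0.95, with the other sign. In tumor barcodes it was 1.68 for Zfp36, 2.81 for Cxcl1 and 1.33 for H2-K1, but -0.13 for H2-Ab1 and 0.36 for Col1a1. The difference between the pairs was not tested.

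Across the 5 pools, the control day 21 pool held the highest macrophage Klf2, with 302 at pretreatment, 259 and 1090.0 in the control pools and 318 and 626 in the L-fucose pools at days 7 and 21. Zfp36 in macrophages followed the same layout with 1635, 789.5, 2553, 954 and 1867. Fn1 stood at 117, 113, 12.9, 84.8 and 45.0. For Gclm the values were 156, 278, 57.1, 199.5 and 69.7, so the control day 7 pool was the highest. In tumor barcodes Zfp36 stood at 343, 138, 896, 124 and 396. H2-K1 stood there at 415, 311, 1166, 501 and 1258, and Cd74 at 2285, 1846, 3029, 3472 and 2915. Lag3 in other Ptprc-positive barcodes stood at 94.4, 16.2, 209.7, 70.8 and 47.3, and Pdcd1 at 140.4, 26.8, 201, 84.7 and 49.0. The control day 7 pool was the lowest of the 5 for Lag3 and Pdcd1 in this class and for Zfp36 in macrophages.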

How the data were processed

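SW1 tumors of control mice at days 7 and 21 were measured in 1 pooled 10x Genomics RNA library and 1 T cell receptor library per day, and the pretreatment and L-fucose libraries were used beside them. The authors aligned reads to mm10 with Cell Ranger (version 3.0 in the submitters' notes, 7.1.0 in the matrix headers) and deposited whole-number UMI counts for each gene in each barcode, with no normalization, and receptor contigs and clonotypes with a count and a fraction of barcodes. From the deposited counts, barcodes were filtered and gated as described, UMIs were summed per class and scaled to 1000000. Genes were compared when their mean level equalled at least 10 UMIs in the smaller sum, with 1 UMI of that sum as pseudocount. Fold changes have exact conditional Poisson 95% intervals and shares exact binomial (Clopper-Pearson) ones, both for counting error only, and a UMI sum of 0 was taken as 3. No p-value is given, since each day is 1 library. The calculation was tested on simulated data. Lists of genes (25) and of cell type markers (16) and the gene naming rule (list members, the gate genes, the 15 highest and 15 lowest ratios of genes with at least 200 UMIs, and the 10 highest and 10 lowest of the 300 most abundant genes) were chosen with earlier results of these data known. Xist and some other list members are not reported here. Mx1, Mx2, Aldoa, Ddit3, Ctgf, Cyr61 and Cd244 could not be matched to 1 row under these symbols. Doublets were not removed in the main values. Scrublet in scanpy 1.11.5 was used in an alternative. Barcode sequences shared by the 2 libraries numbered 86. Python 3.11.15, numpy 2.4.6, scipy 1.17.1 and pandas 2.3.3 were used. Promoter sequences are from RefSeq on GRCm38.p6.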

Additional observations from a re-analysis of the deposited data

Results flagged for a closer look

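In 4 cases the median log2 ratio of a gene list passed 2-fold in opposite directions in the control pair and the L-fucose pair. Each pair is 1 library against 1 library, so the difference was not tested. In other Ptprc-positive barcodes, T and NK effector genes had a median of 1.75 in the control pair (16 genes) and -2.29 in the L-fucose pair (15 genes), with Prf1 at 38.7 at day 7 and 159.8 at day 21 (CPM) in the control pools and 179 and 67.0 in the L-fucose pools. T cell markers had 1.33 and -1.27 over 9 genes. Under strict gates the control medians of these 2 lists were 0.82 and 0.41, so they no longer passed 2-fold. Mast cell and basophil markers had 2.92 and -4.01, with Mcpt8 at 1.67 at day 7 and 63.1 at day 21 in the control pools, where 69.1% of its day 21 UMIs lay in 1 barcode, and 112 and 6.76 in the L-fucose pools. In tumor barcodes, immunoglobulin genes had -2.94 and 2.69 over 8 genes each.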

How the results depend on the processing

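No paired analysis was possible because each day is 1 pooled library and the labels tie no mouse to both libraries. Of the counts of genes and the shares under the alternatives, 62 of 88 counts stayed within 1.5 times and 14 of 34 shares within their interval. Strict gates gave 644 higher genes in other Ptprc-positive barcodes and day 7 shares of 6.82% macrophages, 11.5% other and 49.3% tumor barcodes. A minimum of 200 genes gave 9.22 and 47.6% macrophages at days 7 and 21, 20.1% other at day 7, and 47.3 and 25.1% tumor barcodes. At most 20% mt- UMIs gave 49.5% tumor barcodes at day 7. Leaving out the highest doublet scores (2969 and 34 barcodes) gave 9.20% macrophages and 19.98% other at day 7. At least 20 C1q UMIs gave 7.17 and 43.3% macrophages and 22.2 and 14.9% other, a C1q share of 0.2% gave 14.1 and 52.9% macrophages and 19.2% other at day 7, and at least 2 Sox10 UMIs gave 36.4 and 28.3% tumor barcodes. Thinning to 1000 UMIs, which leaves fewer genes to compare, gave 227 higher and 774 lower genes in macrophages, 716 and 317 in other, and 202 and 58 in tumor barcodes. A pseudocount of 10 CPM gave 147 and 499 in macrophages, 727 lower in other, and 97 and 65 in tumor barcodes. A minimum of 30 UMIs gave 1315 lower in macrophages, 701 and 693 in other, and 363 and 191 in tumor barcodes, and no minimum gave 1495 and 3987, 2390 and 2559, and 1475 and 1839. The median of ratios gave 785 higher in macrophages, and the mean over barcodes 2076 higher in other Ptprc-positive barcodes. Leaving out immunoglobulin-rich barcodes, like leaving out the richest barcode of each gene, was chosen after seeing the data and gave 767 lower in other. In tumor barcodes, list medians turned from -1.49 to 0.54 (inhibitory receptors), from -2.40 to 1.54 (naive and memory T cell) from -2.02 to 0.14 (resident-type) and from -0.79 to 0.47 (inflammatory) after thinning and to 0.82 and 0.40 (the first 2) with a minimum of 30 UMIs, and the CC chemokine median of other Ptprc-positive barcodes from 1.74 to -0.14 with no minimum. Log2 ratios in tumor barcodes turned to 0.23 for Hspa1a, 0.31 for Il1b and -0.15 for Mia after thinning, and to 0.17 for Hspa1a, 0.025 for Cfp and 0.48 for Il1b with the mean over barcodes. Of the named genes past 2-fold, 30 of 54 in macrophages, 33 of 48 in other and 34 of 59 in tumor barcodes stayed past 2-fold in every alternative other than those chosen after seeing the data. The cause of these differences was not tested. With 1 library per day, the spread between mice is unknown, and the 204 other Ptprc-positive and 44 receptor-bearing barcodes of day 21 limit what can be seen.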

Other observations

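The kappa variable gene Igkv3-4 shows how antibody RNA is spread among barcodes. In other Ptprc-positive barcodes it had 0 UMIs at day 7 and 8935 at day 21, of which 98.8% lay in 1 barcode of 48. In macrophages it had 1 UMI at day 7 and 438 at day 21, spread over 171 barcodes with 2.74% in the richest. In tumor barcodes it had 0 and 228 UMIs, the latter over 106 barcodes. Another variable gene, Ighv3-8, had 0 UMIs in macrophages at day 7 and 11724 in 7 barcodes at day 21.

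In the pretreatment pool, macrophages carried Fn1 at 117 CPM and S100a6 at 568, close to the control day 7 values of 113 and 522. Cbr2 (65.3), Folr2 (48.7), Arg1 (1118) and Cd74 (26455) stood higher there than in both control pools.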
